A study of Mus musculus with 2 samples.

Results

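Forkhead (Fox) genes encode transcription factors that share a winged-helix DNA-binding domain, and they are sorted into lettered classes by the sequence of that domain. The set described here was the 41 mouse Fox genes of a list by name, from Foxa1 to Foxs1, of the 20655 genes that could be named on the array. Their expression was measured in the lens of newborn mice (postnatal day 0) on Agilent 1-colour arrays. A single array was run per genotype, control and Foxp1 lens knockout. The genes were taken by name and not by their values, though earlier results of these data were known when the list was made. The question asked was which of these genes read above background in newborn lens, and which read differently on the knockout array.

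The control RNA was labelled wild-type and came from a litter mate, and the knockout RNA was labelled Foxp1 KO. Both were on a mixed C57BL/6 background. The treatment text, identical for both samples, names homozygous floxed Foxp1 and Pax6-L-Cre, a Cre recombinase driven by Pax6 regulatory DNA, so the genotype field was used to separate the arrays. Pax6-driven Cre lines of this kind act from the early surface ectoderm of the eye and are therefore not limited to the lens proper. Whether the control carried floxed alleles or Cre, and whether the RNA came from pooled animals, is not given in the sources used here. With 1 array per genotype there is no replicate, so every difference below compares these arrays and has no p-value. Differences are log2 values, knockout minus control, after subtracting the 75th percentile of each array (signals of 282.6 and 279.9). A gene was called at 2-fold, a difference of 1, and a probe counted as measured when well above background on both arrays.

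Forkhead factors act at several steps of eye development. Foxe3 is the lens epithelial factor of the family and keeps those cells in cycle, and loss of it leaves a small, cataractous lens. Foxc1 and Foxc2 work in the periocular mesenchyme, from which the cornea and the drainage angle form. Foxo factors are held in the cytoplasm by insulin and growth factor signalling, Foxm1 drives genes of G2 and mitosis, Foxj1 drives motile cilia, and the Foxp proteins repress transcription, as dimers and with corepressors such as CtBP1 and the NuRD complex.

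The dimmest signals were read unequally by the arrays, and this touches many of the forkhead values. Of all gene spots, 67.5% were well above background in control and 56.9% in knockout. ERCC control probes, which match synthetic RNAs that may or may not have been added here, were well above background at 36.7% of 2551 control-array spots and 10.2% of knockout-array spots, with 95th percentiles of 58.0 and 24.4. Among probes printed at least 5 times, the spot SD of a difference was 0.31 where the lower signal was under 50 and 0.11 at 300 or more. Lens tissue was checked by 16 markers (crystallins, lens membrane and filament genes), all measured on both arrays. Their median difference was -0.03, and Lgsn was the lowest at -0.67. Signals of different probes are not compared as expression levels, since each probe has its own brightness.

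The regulatory start is shown for Foxp1, the targeted gene, and for Foxa1 and Foxd1, the 2 members above background on the knockout array only, as the 300 bases from 250 before to 50 after a transcription start in RefSeq (GRCm38.p6), read 5′ to 3′ on the strand of the gene. The capitals mark a match to 1 of the 4 forkhead core motifs that are named below. Other forms of the core were not searched and are not marked. The Foxa1 window is chr12:57546062-57546361 on the minus strand, the Foxp1 window shown, 1 of 3 for this gene, is chr6:99520944-99521243 on the minus strand, and the Foxd1 window, which has no match, is chr13:98353995-98354294 on the plus strand. The other Foxp1 windows have no match to these 4 motifs and are not printed, which does not mean that they lack other forms of the core.
Foxa1: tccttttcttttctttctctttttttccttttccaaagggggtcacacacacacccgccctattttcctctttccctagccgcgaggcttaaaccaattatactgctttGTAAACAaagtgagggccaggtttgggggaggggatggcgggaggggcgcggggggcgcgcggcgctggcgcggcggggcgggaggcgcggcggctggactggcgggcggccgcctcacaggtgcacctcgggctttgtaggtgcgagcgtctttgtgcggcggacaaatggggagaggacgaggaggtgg
Foxp1: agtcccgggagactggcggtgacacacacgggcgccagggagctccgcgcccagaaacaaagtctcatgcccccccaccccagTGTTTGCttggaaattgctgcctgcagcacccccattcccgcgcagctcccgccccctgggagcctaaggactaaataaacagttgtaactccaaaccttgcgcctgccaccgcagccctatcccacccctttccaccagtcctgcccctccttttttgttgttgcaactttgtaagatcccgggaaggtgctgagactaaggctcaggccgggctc
Foxd1: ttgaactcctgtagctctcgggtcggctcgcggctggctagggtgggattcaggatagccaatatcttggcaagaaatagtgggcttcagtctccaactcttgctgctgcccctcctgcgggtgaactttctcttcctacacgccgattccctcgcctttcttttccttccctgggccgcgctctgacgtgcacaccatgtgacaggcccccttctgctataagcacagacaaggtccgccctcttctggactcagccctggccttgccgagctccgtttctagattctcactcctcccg

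Both strands of such windows were searched for the letters of each of 4 motifs, and no window of a forkhead gene held overlapping matches. Windows were present for 26 of the 41 genes (31 windows). The motif TGTTTAC was found in the Foxa1 window only, as its reverse complement GTAAACA, against 3.65% of all 32851 windows. TGTTTGC was found in the Foxp1 window shown and in a Foxj3 window, against 5.07% of all. TATTTGT was in windows of Foxd4 and Foxp3, against 3.63%. The fourth, TATTTAT, was in 0 forkhead windows, against 5.60%. At least 1 of the motifs was in 5 of the 31 forkhead windows, each of a different gene, and in 16.2% of all windows. These are matches of letters, with no binding measured.

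Of the 41 genes, 26 were measured on both arrays (69.0% of all named genes were), 4 were above background on the control array only (8.76% of all), 2 on the knockout array only (2.29% of all) and 9 on neither. The 41 genes were read by 52 probes, each printed once, with 0 outlier and 0 saturated spots. The 9 that were not above background were Foxa2, Foxa3, Foxb1, Foxc2, Foxd3, Foxf1, Foxi2, Foxl1 and Foxn1. Their probes read 4.15 to 23.6 in control and 2.40 to 8.43 in knockout, so for these genes expression was not detectable. Above the 95th percentile of the ERCC spots, a stricter limit, stood 20 members in control, 25 in knockout and 18 in both, where 59.8% of all named genes stood above it in both.

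**Figure D1:**
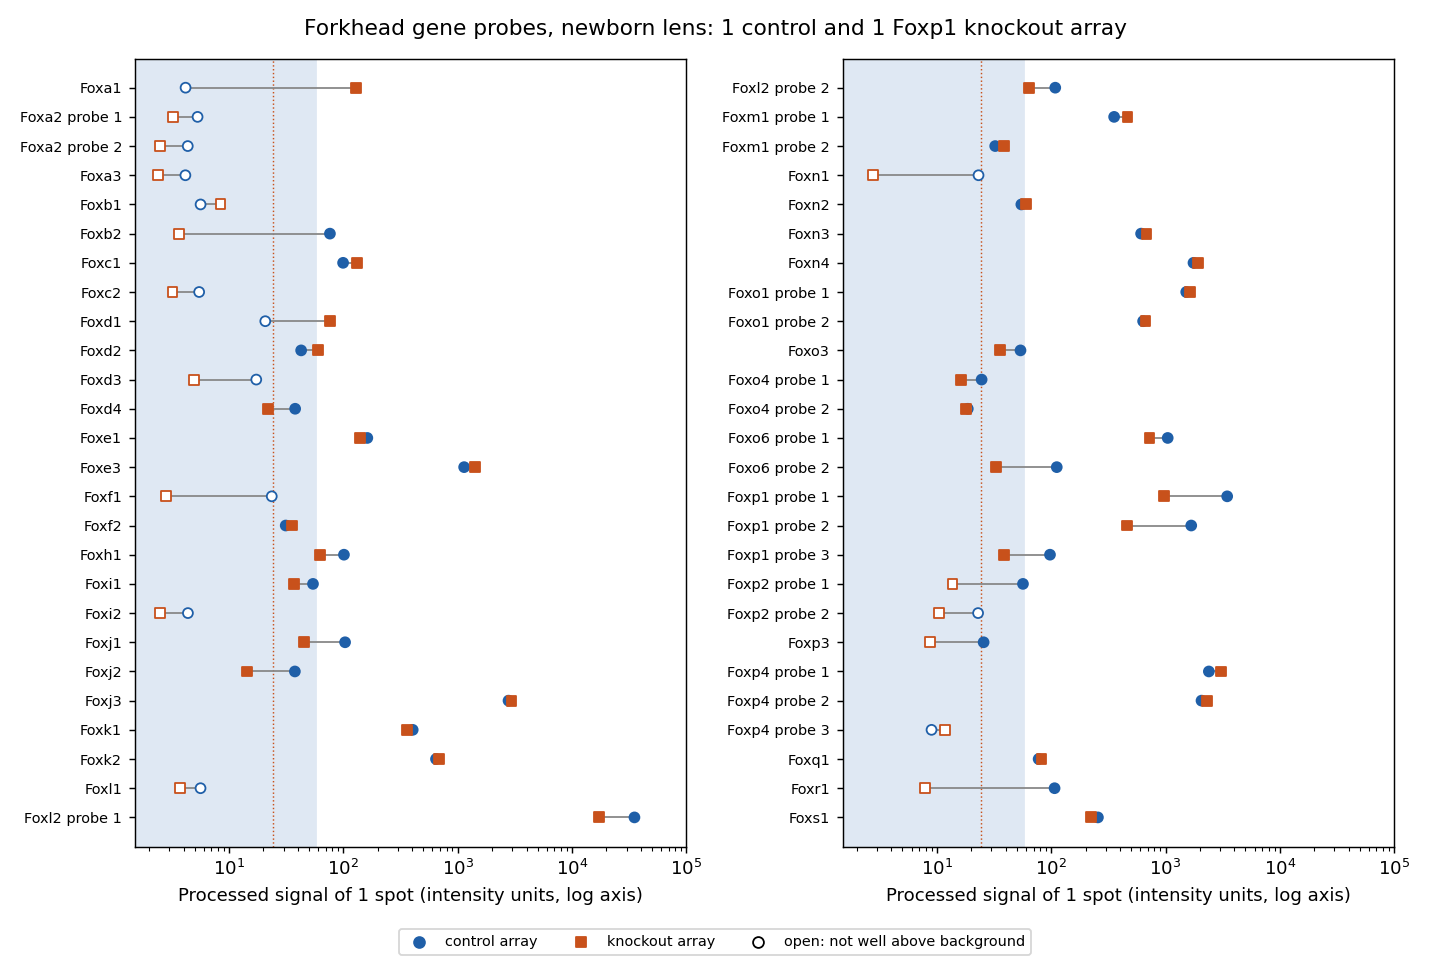
Processed signal (log axis, intensity units) of each forkhead probe on the control array (blue circles) and the knockout array (orange squares), 1 spot each, with open symbols for readings not well above background. The shaded range ends at the 95th percentile of ERCC control spots on the control array (58.0) and the dotted line marks it on the knockout array (24.4); the 2 bright Foxp1 probes fell from 3460.2 and 1677 in control to 969.9 and 464 in knockout.

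Of the 26 measured genes, 13 read above 0 and 13 below, where 50.9% of all measured genes read above 0. The same share stands beside the counts of gene lists below. At 2-fold, 4 were lower (Foxp1, Foxj1, Foxj2 and Foxo6), beside 5.86% of all 14254 measured genes, and 0 were higher, beside 1.02% of all. The median was -0.03, and 0.10 without Foxp1, beside 0.01 for all measured genes. Of the 12 genes with a probe at 300 or more on both arrays, 8 read above 0, with a median of 0.11. Of all 7933 such genes, 64.9% read above 0, with a median of 0.07, and 0.479% were 2-fold lower and 0.592% higher. Of the 14 dimmer genes, 9 read below 0, with a median of -0.38. Of all 6321 such genes, 33.4% read above 0, with a median of -0.20, and 12.6% were 2-fold lower and 1.57% higher. The 2 members called lower among the brighter genes were Foxp1 and Foxo6, and the 2 among the dimmer genes were Foxj1 and Foxj2.

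**Figure D2:**
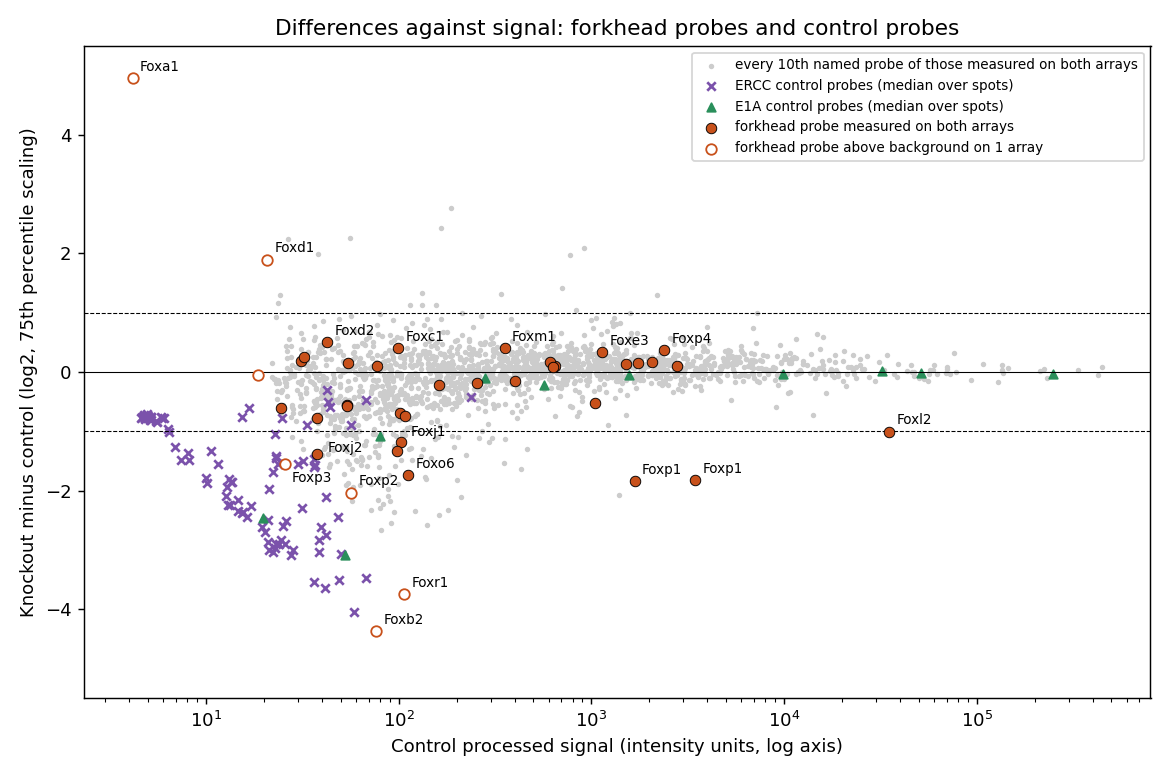
Knockout minus control difference (log2) of each forkhead probe against its control signal (log axis), over every 10th named probe measured on both arrays (grey), with ERCC (crosses) and E1A (triangles) control probes as medians over spots and dashed lines at 2-fold. The bright Foxp1 probes (-1.82 and -1.84) lie apart from the grey probes of like signal, while the dim members called lower lie among grey and control probes that also read lower.

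Foxp1, the targeted gene, was lower on the knockout array at all 3 probes. Its brightest probe read 3460.2 in control and 969.9 in knockout, a difference of -1.82. A second probe to the same transcript read 1677 and 464, a difference of -1.84. The third, designed to another transcript variant, read 97.5 and 38.4, a difference of -1.33. The mean was -1.66 (SD 0.29 over the 3 probes), a 3.17-fold lower signal. Of probes of like signal, 0.175% and 0.0766% were as low as the bright probes, these included, and 12.8% were as low as the dim one. Signal well above background remained at all 3 probes of the knockout array. Fewer cells with the transcript and less transcript per cell cannot be told apart in whole lens RNA, and whether these probes lie inside the deleted part is not given in the sources used here.

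Foxp4, a repressor of the same class that can dimerise with Foxp1, was not called. Its bright probes read 2392 and 3075, a difference of 0.38, and 2063 and 2311, a difference of 0.18. The mean was 0.28 (SD 0.14 over the 2 probes), where 15.6% of all genes at 300 or more were as high. A further Foxp4 probe read 8.98 and 11.8, not well above background on either array. Both bright readings were thus higher on the knockout array by more than the spot SD of 0.11, and by far less than 2-fold. Probes of like signal had a median of 0.10 for both. Of these, 9.59% were as high as the probe at 0.38 and 33.4% as high as the probe at 0.18. The spot of the probe at 0.18 lay in column 2 of the array. For bright spots (defined with Foxl2 below), the SD of the difference was 0.47 in the first 3 columns, beside 0.27 over all columns. The part of array position was not tested.

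Foxp2, known for its part in brain circuits of vocal learning, and Foxp3, the factor of regulatory T cells, were above background on the control array only. One Foxp2 probe read 56.6 and 13.7, at least 4.09-fold lower, and the other read 22.9 and 10.5, above background on neither. The Foxp3 probe read 25.6 and 8.70, at least 2.09-fold lower. These bounds hold for this scaling only. After normexp background correction, which models signal plus background, the differences were -0.65 for the brighter Foxp2 probe and -0.35 for Foxp3. Under loess they were -1.01 and 0.04. Of the 1809 genes seen on the control array only, 92.9% had a bound past 2-fold in this direction, so such a bound does not set a gene apart. Both control signals lay below 58.0, the 95th percentile of the ERCC spots. Beside Foxp3, 4 of 8 T-cell markers were measured, 2 above and 2 below 0 (median -0.16). Cd3g was lower (-1.47), Cd3e was at -0.34, Lck at 0.24 and Cd4 at 0.03. A further 2 were, like Foxp3, above background on the control array only, while Il2ra and Il7r were so on neither array, and the summed signal went from 2031 to 1861. Their part in the Foxp3 reading was not tested.

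Among 18 cofactors of Foxp repressors, 17 were measured, 12 above and 5 below 0, and none was called. The median was 0.13, beside 0.01 for all genes. With the brightest probe of each gene it was 0.02 beside 0.03 for all, and under quantile scaling 0.07 beside 0.06. The deacetylase Hdac1 was at -0.48 (SD 0.45 over 3 probes), Mta3 at -0.41 (SD 0.51 over 2 probes) and Gatad2b at -0.37, while the corepressor Ctbp2 was at 0.29. The probes of Hdac1 and Mta3 disagreed by more than the spot SD.

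Foxe3, the lens epithelial member, was read brightly on both arrays. Its probe read 1138 in control lens and 1427 in knockout lens, a difference of 0.34 or 1.27-fold. The difference exceeded the spot SD of 0.11, but 13.6% of probes of like signal were as high, and the gene was not called. Foxe1, its class relative and the factor of thyroid development, read 162 and 139, a difference of -0.21. Set against the median of all genes, Foxe3 read above 0 and Foxe1 below 0 under every setting tried. The lens factors that act with or around Foxe3 were all measured (16 of 16), with 10 above and 6 below 0, none called and a median of 0.07, the same as over all genes at 300 or more. Gata3 read 947 and 1515, a difference of 0.69, and Sox2 read 527 and 765, a difference of 0.55. Mab21l1, needed for lens formation, read 468 and 586, a difference of 0.34.

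The members linked to periocular and other mesenchyme were dim. Foxc1 read 99.4 and 130.4, a difference of 0.41 (9.34% of probes of like signal were as high). Foxd2 read 42.7 and 60.3, a difference of 0.51 (5.13% as high), the largest positive difference among the measured members. Foxf2, of gut and palate mesenchyme, read 31.3 and 35.5, a difference of 0.19. Foxq1 read 77.6 and 82.3, a difference of 0.10, from a spot in the outermost column of the array. Foxs1, of pericytes and other perivascular cells, read 256 and 223, a difference of -0.19, and Foxd4 read 37.9 and 21.9, a difference of -0.78. None was called. Foxd2, Foxf2, Foxq1 and Foxc1 read higher in a range of signal where the median difference was below 0, as for the probes of like signal to Foxd2 (-0.47) and Foxc1 (-0.13).

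Foxd1, a factor of kidney stroma and of the ventrotemporal retina, was above background on the knockout array only. It read 20.8 in control and 76.5 in knockout, at least 3.72-fold higher. Of the 472 genes seen on the knockout array only, 6.36% had a bound of 2-fold or more, and 10 genes, Foxd1 included, had one as large. In knockout 0.98% of ERCC spots were as bright. After normexp background correction, a model of signal plus background that draws dim values together, the difference of Foxd1 was 0.63. Under loess it was 2.61.

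Markers of periocular mesenchyme did not move one way. Of 15, 8 were measured, 3 above and 5 below 0 (median -0.14), and their summed signal was 2153 and 2316. Col1a1 was higher (31.2 and 63.8, a difference of 1.05), Prrx1 was lower (-1.14) and Prrx2 was at -0.83. Twist2, Dcn and Lum were above background on the knockout array only, Dcn at 22.2 and 158 and Lum at 4.34 and 48.9. Twist1 was so on the control array only, and Alx1 and Kera were among those on neither. All 13 retina markers read above 0, beside 50.9% of all measured genes, with a median of 0.34 and summed signals of 10659 and 13563. The median was above 0 under every setting tried, from 0.21 to 1.41. The 1.41 came from median scaling, where all genes had a median of 1.08. Among the retina markers Pou4f2 was higher (1.34), Isl1 was at 0.995 and Stmn2 at 0.89. The part of either tissue in the Foxd1, Foxd2 and Foxc1 readings was not tested.

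Some of these genes are neighbours in the GRCm38.p6 annotation. Foxq1, Foxf2 and Foxc1 follow each other on chromosome 13 with 0 protein-coding genes between them, and their differences were 0.10, 0.19 and 0.41. Foxd2 and Foxe3 are adjacent on chromosome 4 in the same way, with differences of 0.51 and 0.34. Foxf1, Foxc2 and Foxl1 lie together on chromosome 8, with 1 protein-coding gene between Foxf1 and Foxc2, and none of the 3 was above background. All 5 measured genes of such neighbourhoods thus read above 0 at this setting, as did 50.9% of all measured genes. Foxf2 was at -0.03 after normexp correction, 1.05 under loess and 1.35 under quantile scaling, and Foxd2 at 0.24, 1.06 and 1.40.

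Of the Foxo factors, effectors of insulin and growth factor signalling, 1 of 4 was called. Foxo1 read 1517 and 1649 at one probe and 636 and 668 at the other, a mean of 0.11 (SD 0.04 over the 2 probes). Foxo3 read 53.9 and 35.7, a difference of -0.58. Foxo4 read 24.6 and 16.1, a difference of -0.60, and a second Foxo4 probe read 18.6 and 17.9, above background on the knockout array only. Probes of like signal had a median of -0.57 for Foxo3 and -0.73 for Foxo4, and under loess the genes were at 0.06 and 0.73. Foxo6, a member found mainly in neurons, was called lower, with a mean of -1.13 (2.18-fold). Its probes disagreed (SD 0.87 over 2 probes). The brighter read 1044 and 724, a difference of -0.51, from a spot in the outermost column, and the dimmer read 112 and 33.2, a difference of -1.74. The call therefore rested on the dimmer probe, among whose like-signal probes 20.6% were 2-fold lower and 8.30% as low. The call was lost after normexp correction (-0.65) and under quantile (-0.89), loess (-0.94) and median (-0.05) scaling.

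Of 20 genes known as Foxo targets, 18 were measured, 10 above and 8 below 0. Their median was 0.06, and -0.02 after normexp correction, where all genes had 0.02. The muscle ubiquitin ligase Fbxo32 was lower (87.8 and 42.0, a difference of -1.05). Pdk4, which turns off pyruvate oxidation, was at -0.92 (24.8 and 13.0), and Irs2, an adaptor of the insulin receptor, at 0.77 (2244 and 3780). Pck1 and Trim63 were above background on the control array only.

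Foxm1, the factor of mitotic genes, read 355 and 464 at one probe, a difference of 0.40, and 32.4 and 38.3 at the other, a difference of 0.26. The mean was 0.33 (SD 0.10 over the 2 probes), not called, and 11.1% of all genes at 300 or more were as high. Of 18 known Foxm1 targets, 17 were on the array and 16 measured, 15 above and 1 below 0, with none called. Over all measured genes, 50.9% read above 0. The median of the targets was 0.49, beside 0.01 for all genes and 0.07 for all genes at 300 or more. It stayed above 0 under every setting (0.36 to 1.56). The 1.56 came from median scaling, where all genes had a median of 1.08. Cdc20, which switches on the anaphase ubiquitin ligase, read 2010 and 3380.3, a difference of 0.76. The checkpoint kinase Bub1 was at 0.60 and Nek2, a centrosome kinase, at 0.57, while Cenpf, read dimly, was at -0.17. The direction of this group was known from earlier results of these arrays.

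Members expressed in many tissues differed little. Foxk1, a repressor of autophagy genes, read 404 and 360.3, a difference of -0.15, and its relative Foxk2 read 646 and 689.7, a difference of 0.11. Foxj3 read 2783 and 2952, a difference of 0.10, and Foxn3, a checkpoint-linked repressor, read 611 and 681, a difference of 0.17. Foxn2 read 54.8 and 60.1, a difference of 0.15. The largest of these, 0.17, stood beside a spot SD of 0.11. Foxn4, a factor of amacrine and horizontal cell fate in the retina, read 1755 and 1939, a difference of 0.16. The retina markers given above were all measured beside it, and their part in the Foxn4 reading was not tested.

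Foxj1, the master factor of motile cilia, was called lower at 104 and 45.5, a difference of -1.17 (2.26-fold). Foxj2 was called lower at 37.7 and 14.4, a difference of -1.38 (2.60-fold). Both rest on 1 dim probe. Among probes of like signal the median was -0.31 for Foxj1, with 15.3% of them 2-fold lower and 11.3% as low. For Foxj2 the median was -0.73, with 32.9% 2-fold lower and 13.5% as low. Neither call held after normexp correction, where the differences were -0.59 and -0.37. Of 16 genes of motile cilia on the array, 9 were measured, 3 above and 6 below 0, with a median of -0.05 that was above 0 under quantile (0.18) and loess (0.14) scaling and with the brightest probe of each gene (0.02). Tekt2, a filament protein of the axoneme, was lower (162 and 45.6, a difference of -1.82), Rsph1 was at -0.42 (SD 0.92 over 2 probes) and Dnah11 at 0.39.

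**Figure D3:**
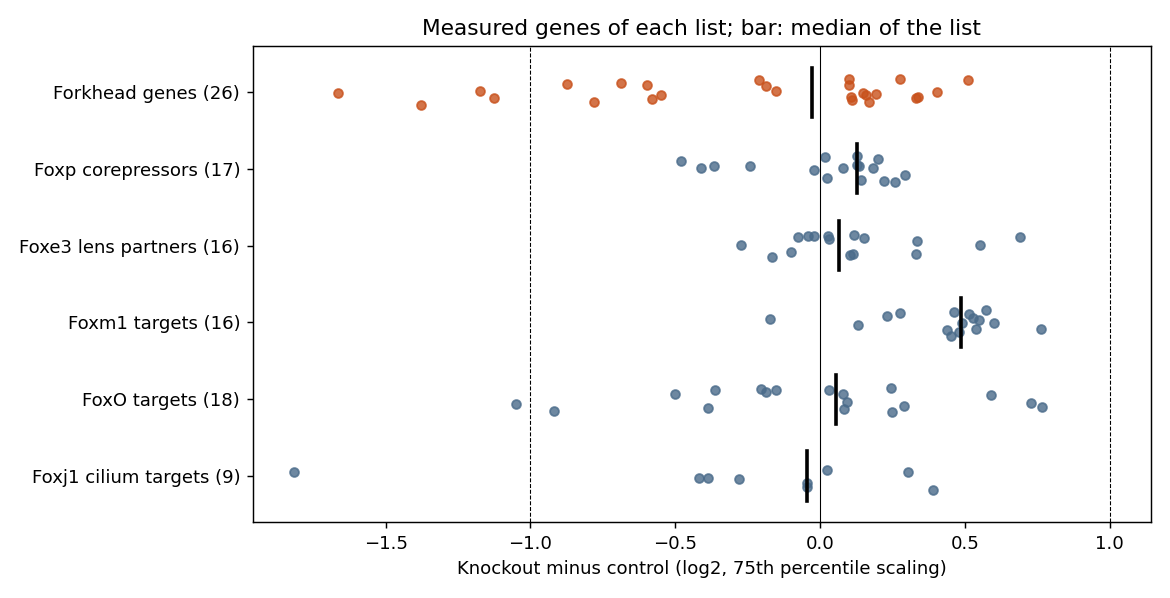
Knockout minus control difference (log2) of the measured forkhead genes, Foxp cofactors, Foxe3 partners, and Foxm1, Foxo and Foxj1 targets, 1 point per gene. Bars mark the median of each list and dashed lines mark 2-fold. The marker lists are not shown. The Foxm1 targets lie furthest above 0 (median 0.49), while the forkhead genes centre near 0 (median -0.03) and spread from -1.66 to 0.51.

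Foxl2, the factor of the ovary and the eyelid, was read by the brightest of all forkhead probes. That probe read 35154 in control and 17369.6 in knockout, a difference of -1.003, and 1.13% of probes of like signal were as low. Its spot lay in the last of the 164 columns of the array. Of bright spots (control signal of 1000 or more), 11.6% in that column (5 of 43) were 2-fold lower, beside 0.8% over all columns (69 of 8625), and the SD of the difference was 0.60 beside 0.27. The second Foxl2 probe, away from the edge, read 108 and 64.2, a difference of -0.74. Of its like-signal probes, 16.2% were as low and 9.64% were 2-fold lower. The mean was -0.87 (SD 0.18 over the 2 probes), a 1.83-fold lower signal and not called. Both probes thus read lower, and the part of array position was not tested.

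Foxh1, a partner of SMAD proteins in nodal signalling, read 101 and 62.3, a difference of -0.69. Foxi1, of ionocytes and the inner ear, read 54.2 and 36.7, a difference of -0.55. Neither was called, and both lay in the dim range where most genes read below 0.

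Foxa1, a pioneer factor of endoderm and glandular epithelia, was above background on the knockout array only. It read 4.17 in control and 128 in knockout, at least 6.29-fold higher, and 4 of the 472 genes seen on the knockout array only, Foxa1 included, had a bound as large. On the knockout array 0.745% of ERCC spots were as bright. The difference was 1.75 after normexp correction and 6.15 under loess. Its relatives Foxa2 and Foxa3 were above background on neither array. Of 11 endoderm and liver markers, 5 were measured, 3 above and 2 below 0 (median 0.15), with summed signals of 310.2 and 286. Ttr was lower (-1.41) and Sox17 was at -0.42, while Alb was above background on the knockout array only, at 10.5 and 60.2, and 2 others were so on the control array only. Of 11 surface epithelium markers, 9 were measured, 2 above and 7 below 0, with summed signals of 2489 and 3346. Krt13 was lower (-1.43), Krt14 was at -0.96 and the water channel Aqp5 at 0.92 (501 and 1333 at its brightest probe). Most of the rise in the summed signal came from Aqp5, while 7 of the 9 markers read lower. The part of either marker set in the Foxa1 reading was not tested.

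Foxb2 and Foxr1 were above background on the control array only. Foxr1 read 107.004 in control and 7.92 in knockout, at least 8.74-fold lower, and Foxb2 read 76.3 and 3.65, at least 6.23-fold lower. Among the 1809 genes seen on the control array only, 38 had a bound as large as that of Foxr1 and 136 one as large as that of Foxb2. On the control array 0.941% of ERCC spots were as bright as Foxr1 and 1.84% as bright as Foxb2. After normexp correction the differences were -1.17 for Foxr1 and -1.27 for Foxb2, and under loess -2.76 and -2.88. The E1A control probe at 80.2 in control read 38.0 in knockout, and the one at 52.4 read 6.79. Of brighter ones, the probe at 280 in control read 266 in knockout and the probe at 566 read 485.

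**Figure D4:**
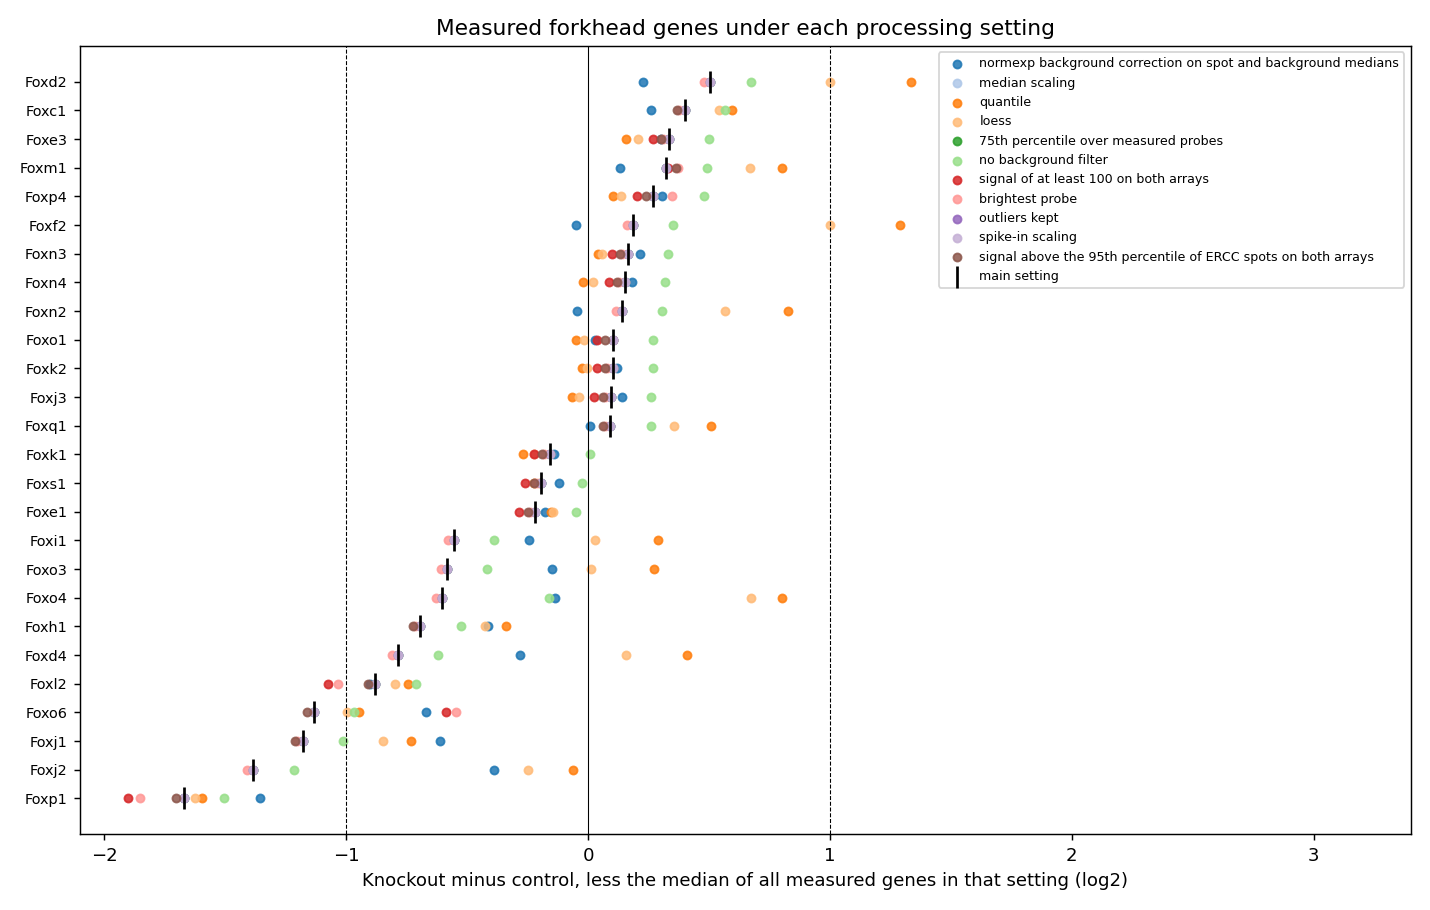
Difference (log2) of each measured forkhead gene under the setting used throughout (black bar) and each alternative (coloured points), less the median of all measured genes in that setting, with dashed lines at 2-fold. Foxp1 stays between -1.90 and -1.36, while dim members such as Foxf2, Foxo4 and Foxj2 move widely.

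Set against the median of all genes in each setting, 7 members read above 0 under every setting that measured them (Foxc1, Foxd2, Foxe3, Foxm1, Foxn3, Foxp4 and Foxq1). A further 8 read below 0 under every setting that measured them (Foxe1, Foxh1, Foxj1, Foxj2, Foxl2, Foxo6, Foxp1 and Foxs1), and 11 changed sign. Foxc1, Foxq1, Foxh1 and Foxj1 had no value under the signal minimum of 100, and Foxd2 and Foxj2 had none under it or under the ERCC limit. Foxp1 kept the largest negative value of the 26 measured genes, from -1.90 to -1.36.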

How the data were processed

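Total RNA of lens was labelled with Cy3 and hybridised to SurePrint G3 mouse arrays, 1 per genotype, which lay on the same slide. Per the file headers, Agilent Feature Extraction 10.7.3.1 extracted the spots, with a probe layout annotated to mm9. The deposited values are linear spot intensities after background subtraction by that software, with no scaling between arrays. Flags for outliers, saturation and signal well above background are the authors' deposited values.

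From these intensities, the log2 was taken and the 75th percentile of gene spots of each array subtracted. Control spots, and spots with an outlier flag on 1 or both arrays, were not used. A probe was measured if over 50% of its spots passed the well-above-background flag on each array, and a gene took the mean over its measured probes. A gene above background on 1 array was given a bound against the higher of the dim probe's own signal and the lowest signal called well above background there (20.6 control, 12.1 knockout). Like-signal probes lay within 0.25 (log2) of the mean of a probe. Probes were named by RefSeq accession through a GRCm38.p6 table (27225 of 55655 probes, 20655 genes), which was not used for coordinates of probes. Normexp used spot and background medians with an offset of 50. Python 3.11.15, R 4.3.3 and limma 3.58.1 were used, and the steps were tested on simulated data. The simulated arrays had the same noise at all signals and shared background flags, so unequal reading of dim signals was not covered.

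The members and the 15 gene lists were chosen with earlier results of these data known. Every forkhead gene was accounted for, and of each list up to 3 measured genes with the largest difference and the genes past 2-fold were named, some of which are not reported here. Markers seen on 1 array or on neither, Cenpf and Ctbp2 were named after their values were seen. No test across samples was possible. Precision is limited by there being 1 array per genotype.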

Additional observations from a re-analysis of the deposited data

How the results depend on the processing

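Foxp1 was at least 2-fold lower in 10 of 11 alternatives, the exception being scaling by the array medians (-0.59), which raised the median of all genes to 1.08. The count of forkhead genes 2-fold lower (4) became 1 under normexp correction, quantile scaling and loess, 0 under median scaling, 2 with a signal of at least 100 on both arrays, and 11 without the background filter. The count 2-fold higher (0) became 2 under quantile scaling, under loess and without the filter, and 13 under median scaling. Under quantile and loess scaling these were Foxd2 (1.40 and 1.06) and Foxf2 (1.35 and 1.05). The number measured (26) became 41 without the filter and 14 with the signal minimum, and the median (-0.03) became 1.05 under median scaling and -0.55 without the filter. Genes above and below 0 (13 and 13) became 17 and 9 under loess, 16 and 10 under quantile scaling, 11 and 15 under normexp, and 9 and 17 with the percentile over measured probes. Foxj1, Foxj2 and Foxo6 lost their calls under normexp (-0.59, -0.37 and -0.65), quantile (-0.67, -0.000156 and -0.89) and loess (-0.79, -0.19 and -0.94), and Foxo6 also with its brightest probe or the signal minimum (-0.51). Foxl2 passed 2-fold under the same pair of settings (-1.003). Keeping outlier spots and scaling by control RNAs changed no forkhead call. Requiring a signal above the 95th percentile of the ERCC spots, an alternative chosen after seeing the data, left 18 genes and a median of 0.10. Median scaling and the percentile over measured probes shift all genes alike, to medians of 1.08 and -0.12, and the cause of the other moves was not tested. No paired analysis was possible because each genotype had 1 array. The spot SD of a difference was 0.31 where the lower signal was under 50 and 0.11 at 300 or more.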

Other observations

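Antisense transcripts of forkhead genes were read by probes of their own. Foxd2os, beside Foxd2, read 49.3 in control and 44.9 in knockout, a difference of -0.12. One Foxl2os probe read 51.3 and 2.93, above background on the control array only, and the other read 4.73 and 4.66, above background on neither array.

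All 7 measured pigment epithelium markers of 8 read below 0 (median -0.37), with Tyrp1 at -0.84, Mlana at -0.45 and Pmel at -0.40. Over all measured genes, 50.9% read above 0. Of 11 endothelial and pericyte markers, 4 read above and 7 below 0, with Emcn lower (-1.12), Tek at 0.86 and Pecam1 at -0.63. Of 8 measured macrophage markers, 2 read above and 6 below 0, with Ptprc lower (-1.06), C1qc at 0.63 and Cx3cr1 at 0.53. Of 4 measured erythroid markers, 1 read above and 3 below 0, with Alas2 at -0.50 and Slc4a1 at -0.11.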
